A study of Mus musculus with 8 samples.

Results

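The genes described here are 33 subunits and erasers of the Polycomb system, read from a table of 32108 mouse genes in fibroblasts on the way to induced pluripotency. They were taken by name: each is a gene row whose Ensembl identifier maps to one of 33 symbols covering Polycomb repressive complex 2 (PRC2), Polycomb repressive complex 1 (PRC1) and the enzymes that remove their marks. All 33 were found. The cells were fibroblasts from embryos of the 4F2A mouse strain (MEFs), whose 4 reprogramming factors are switched on by doxycycline. Per the labels they came from male homozygous embryos at 13.5 days post coitum and grew in serum replacement medium with 1000 U/mL leukaemia inhibitory factor and 2 μg/mL doxycycline from day 0. RNA was taken on day 2, 4, 6 and 8 (D2, D4, D6 and D8), with 2 libraries a day and 8 in all. All libraries carry the transgene and the drug, and the samples hold no day 0 and no culture without doxycycline, so each comparison is between days of one treatment. The titles of all 8 libraries also hold the tag Ctr, so no comparison with another arm is made. The labels call the 2 libraries of a day parallel replicates without saying whether they were separate cultures, so p-values measure the spread between these libraries, which may be technical.

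Polycomb proteins keep genes silent through marks on histone tails. PRC2 methylates lysine 27 of histone H3, with EZH1 or EZH2 as its enzyme and EED and SUZ12 as the scaffold that makes the enzyme active. PRC1 ubiquitinates histone H2A through RING1 or RNF2 paired with 1 PCGF protein. In canonical PRC1 a CBX protein reads the PRC2 mark and a PHC protein joins complexes together, whereas variant PRC1 carries RYBP or YAF2 in place of CBX. The choice of paralogue at each position defines the form of the complex. In embryonic stem cells CBX7 is the main CBX reader and EZH2 the main methyltransferase, while differentiated cells use other mixtures.

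Expression is given as CPM, a gene's counted reads scaled to the same total in every library, and a change is the difference between day means of log2(CPM + 1). The libraries held 19409936 to 20161021 reads, a total inferred by taking the most common value of each library as 1 read. A level of 3 reads then corresponds to 0.149 to 0.155 CPM, below every value printed for the 33 genes. Fibroblast markers summed to 29900 to 47100 CPM in each library, so fibroblast transcripts were abundant on every day. Of 12 pluripotency markers 10 were below 1 CPM in all 8 libraries. The 2 that could be tested, Tdh and Fgf4, were higher at D8 than at D2, by 2.04 and 1.06. The 12 summed to 3.21 and 3.69 CPM at D2 and to 14.0 and 12.2 CPM at D8. Smooth muscle markers summed to 3300 to 3410 CPM at D2 and to 736 to 1040 CPM later. Epithelial markers summed to 39.9 to 43.0 CPM at D2 and to 169 to 180 CPM at D8. Macrophage markers summed to 85.2 to 127 CPM, and endothelial markers went from 71.1 and 73.5 CPM at D2 to 165 and 167 CPM at D8. Between D2 and D8 all 8 smooth muscle markers were lower, while members of the fibroblast, epithelial, macrophage and endothelial lists moved apart. Of 14 fibroblast markers 6 were higher and 6 lower, with changes from -1.43 (Fbln2) to 6.10 (Lum). The fibroblast sum hides these shifts within the list. Of 5 tested endothelial markers 3 were higher and 2 lower, and of 7 tested epithelial markers 5 were higher and 1 lower. Of 10 macrophage markers 3 were higher and 2 lower. Among all tested genes 47.3% were higher and 23.1% lower. The part of these shifts in the results below was not tested, and in bulk RNA fewer cells of a type and less RNA per cell cannot be told apart. The sex-linked genes went against the label: Xist, expressed from the inactive X chromosome, was at 702 to 1240 CPM, while the Y-linked Ddx3y, Kdm5d, Eif2s3y and Uty were at or under 0.333 CPM in every library.

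Among the 33 genes, 26 differed between days (78.8%, limma moderated F test, adjusted p under 0.05), a share near the 80.4% of all 15358 tested genes. Every one of the 33 passed the filter on low values. From D2 to D4, 19 rose and 4 fell, which is 57.6% and 12.1% of the genes beside 40.9% and 21.7% of all tested genes (62.5% in either direction). From D4 to D6, 7 rose and 4 fell, beside 25.2% higher and 12.6% lower genome-wide (37.7% in either direction). From D6 to D8 none rose and 1, Phc2, fell, beside 4.72% and 4.39% (9.11%). At an unadjusted p under 0.05, 4 were higher and 5 lower in that last step. Between the end points, D8 against D2, 17 were higher and 5 lower, beside 47.3% and 23.1% of all tested genes (70.4%). From D2 to D4 the share that rose was above the background and the share that fell below it. From D6 to D8 few of the 33 were called. No test of the 33 genes as a set was run, so the counts are not read as a result about Polycomb genes. The interest lies in which subunits moved.

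The scale matters for small changes. On the deposited CPM scale the median tested gene shifted by 0.11 from D2 to D4 and by 0.17 from D2 to D8, and the median of the 33 genes was 0.28 and 0.22. Of all genes called in D8 against D2, 67.2% were higher with the deposited CPM. The share was 50.9% once libraries were scaled by the median of ratios and 45.1% once they were quantile normalized. The corresponding shares were 65.3%, 52.6% and 47.1% for D4 against D2, and 66.7%, 46.9% and 47.7% for D6 against D4. Under all 3 scalings 12 of the 33 genes were higher and 4 lower at D4 than at D2, and 13 were higher and 4 lower at D8 than at D2. The 13 were Ezh1, Jarid2, Mtf2, Phf1, Ring1, Pcgf1, Pcgf2, Bmi1, Pcgf5, Cbx6, Cbx7, Phc1 and Phc3, and the 4 were Asxl1, Pcgf3, Phc2 and Yaf2. No count under all 3 scalings together is given here for all tested genes. Of these, 35.5% were higher and 34.3% lower at D8 than at D2 after median-of-ratios scaling, and 31.4% and 38.3% with quantile normalization. The D4 against D2 shares were 33.1% and 29.8%, and 28.7% and 32.3%. The 4 small falls from D2 to D4 (Asxl1, Eed, Phc2 and Yaf2) were calls that numbered 0 without either D2 library, 2 without D4 replicate 1 and 1 without D4 replicate 2. The 7 rises from D4 to D6 numbered 4 without D4 replicate 1 or D6 replicate 1, and the 4 falls of that step numbered 1 to 2 without D4 replicate 2, D6 replicate 1 or D6 replicate 2. The 5 lower genes of D8 against D2 numbered 3 without either D2 library or without D8 replicate 1.

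**Figure D1:**
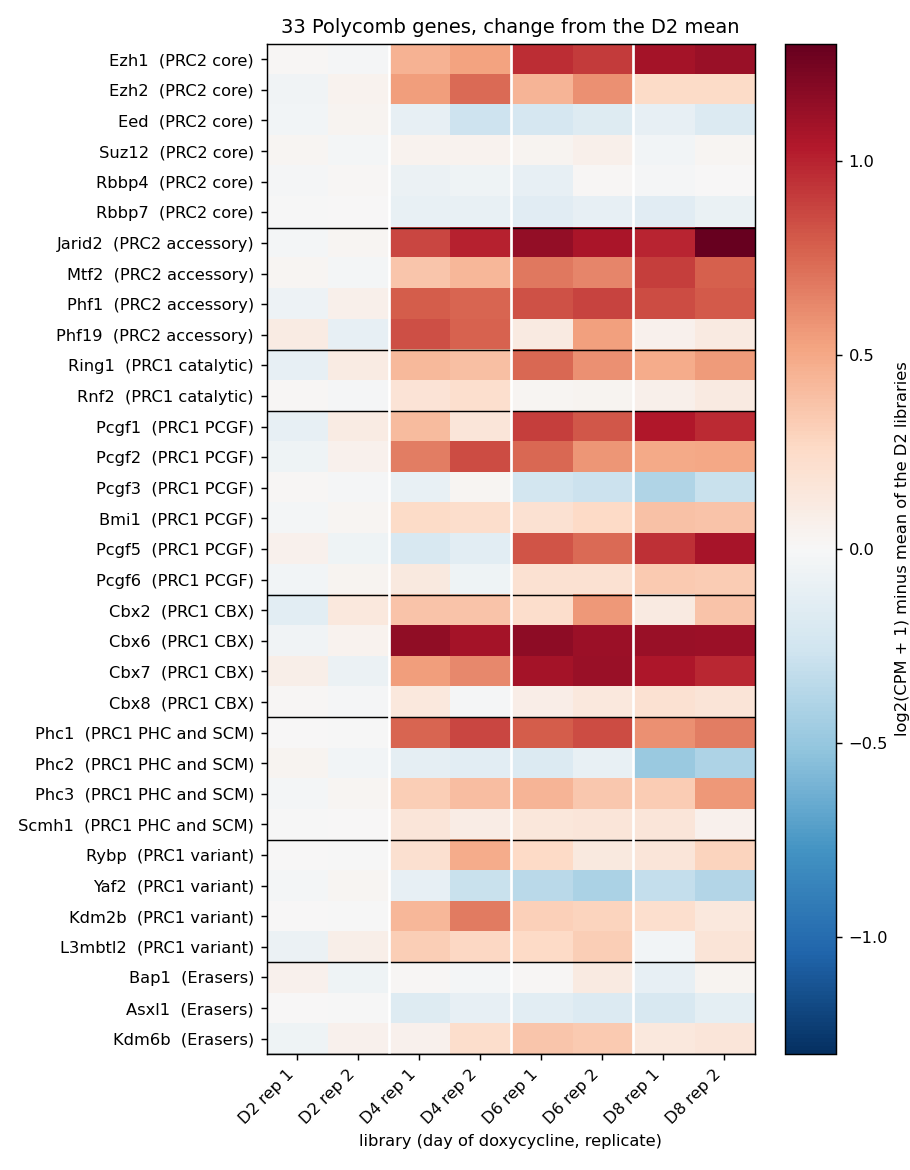
Rows are the 33 Polycomb genes grouped by role and columns the 8 libraries; colour is log2(CPM + 1) minus the mean of the 2 D2 libraries, red for higher and blue for lower. The deepest red lies in the rows of Ezh1, Jarid2, Mtf2, Phf1, Pcgf1, Pcgf5, Cbx6 and Cbx7. In Jarid2, Phf1 and Cbx6 most of it is present from D4, while Ezh1, Mtf2, Pcgf1 and Cbx7 deepen further at D6. Pcgf5 turns red only at D6, and Phc2 is bluest at D8.

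The PRC2 methyltransferases took different courses. Ezh1, the paralogue typical of resting cells (ENSMUSG00000006920, chr11:101191115-101226463, minus strand, mm10), was at 29.0 and 28.4 CPM at D2, 39.5 and 41.7 at D4, 56.8 and 54.6 at D6, and 61.7 and 63.5 at D8. The libraries of the 4 days did not overlap, and each day lay above the one before. Ezh1 rose by 0.49 ± 0.058 (SE) from D2 to D4 (limma adjusted p = 8.31e-06) and by 0.45 ± 0.058 from D4 to D6 (adjusted p = 7e-05). The step from D6 to D8 was 0.17 and did not pass the test (adjusted p = 0.0933). From D2 to D8 Ezh1 rose 2.18-fold, a change of 1.10 with a 95% interval of 0.97 to 1.23 (adjusted p = 1.66e-09).

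Ezh2, the paralogue typical of dividing cells (ENSMUSG00000029687, chr6:47530139-47595341, minus strand, mm10), was at 19.2 and 20.6 CPM at D2, 29.5 and 33.9 at D4, 27.4 and 30.6 at D6, and 23.9 and 23.9 at D8. Its highest day was D4, where both libraries lay above both D2 libraries. It rose by 0.64 ± 0.083 (SE) from D2 to D4 (limma adjusted p = 1.77e-05), and the later steps of -0.12 and -0.27 did not pass (adjusted p = 0.264 and 0.065). Without either D4 library the step from D6 to D8 did pass, at adjusted p = 0.038 and 0.0387. The end points differed by 0.25 on the deposited scale (adjusted p = 0.0152). That last call ended under median-of-ratios scaling (0.07, adjusted p = 0.476), turned to -0.01 under quantile normalization, and ended without D2 replicate 1, D8 replicate 1 or D8 replicate 2 (adjusted p = 0.111, 0.0542 and 0.0548).

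Per kilobase of exon, Ezh2 made up 43.6% ± 1.5 (SD, n = 2) of the EZH sum at D2, 46.5% ± 1.5 at D4, 36.7% ± 2.5 at D6 and 29.9% ± 0.42 at D8. Ezh1 held the rest and was the larger part on every day, with 56.4% at D2 and 70.1% at D8. The summed level of the pair went from 6.78 and 6.90 CPM per kb in the D2 libraries to 11.9 and 12.1 in those of D8. These shares are a description without a test, and the per-kilobase values use the merged exons of all annotated transcripts of each gene. On plain CPM the Ezh1 share was 59.0% at D2 and 72.3% at D8.

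The course of Ezh2 is set beside that of 30 S phase genes, whose transcripts are made by dividing cells. Their summed level was 889 and 876 CPM at D2, 1150 and 1190 at D4, 917 and 1010 at D6, and 799 and 849 at D8. The sum was highest at D4 and lowest at D8. Single genes split at D8 against D2, with 11 of the 30 higher and 7 lower, beside 47.3% and 23.1% of all tested genes. After median-of-ratios scaling 5 were higher and 9 lower, beside 35.5% and 34.3%. With quantile normalization 3 were higher and 14 lower, beside 31.4% and 38.3%. From D2 to D4, 28 of the 30 rose and none fell, beside 40.9% higher and 21.7% lower among all tested genes. From D4 to D6 15 fell, beside 12.6% of all tested genes, and from D6 to D8 10 fell, beside 4.39%. Under median-of-ratios scaling and quantile normalization, 24 and 22 rose from D2 to D4, beside 33.1% and 28.7% of all tested genes. Under the same scalings 21 and 23 fell from D4 to D6, beside 19.4% and 19.2%, and 10 fell from D6 to D8 under each. The part of this S phase course in that of Ezh2 was not tested.

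The stretches around the RefSeq starts of the 2 genes are printed because dividing cells switch on many S phase genes through E2F sites. Each runs from 80 bases before the start to 20 after it, on the strand of the gene, from RefSeq (GRCm38.p6). The Ezh2 stretch is chr6:47595011-47595110 and the Ezh1 stretch chr11:101226444-101226543, both on the minus strand, and capitals mark a match to the E2F-type letters TTTNGCGC.
Ezh2: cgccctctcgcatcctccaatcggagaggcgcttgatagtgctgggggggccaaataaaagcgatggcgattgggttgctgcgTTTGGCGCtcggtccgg
Ezh1: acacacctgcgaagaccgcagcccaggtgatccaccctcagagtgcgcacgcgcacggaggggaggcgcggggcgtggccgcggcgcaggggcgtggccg
In Ezh2 the match begins at base 4 of the transcript. Searched on both strands of windows from 250 bases before to 50 after the start, the motif was in 452 of 32851 RefSeq promoter windows (1.38%). It was in 1 of the 38 windows of the 28 Polycomb genes that the promoter table holds, that of Ezh2, and in 9 of 29 windows of 24 S phase genes (31.0%). A match of letters is a description of the sequence and not evidence of binding.

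**Figure D2:**
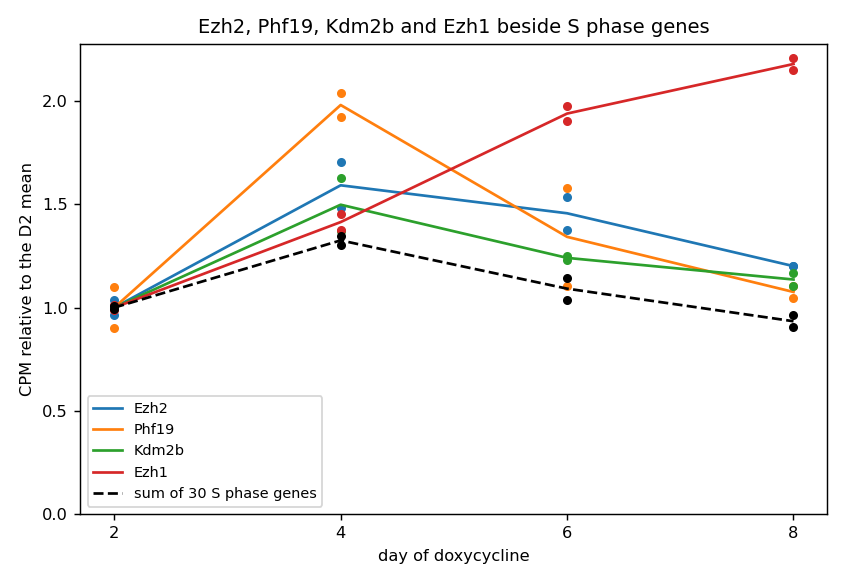
CPM of Ezh2, Phf19, Kdm2b and Ezh1 and the summed CPM of 30 S phase genes, each divided by its mean at D2, against day of doxycycline; points are libraries and lines join day means. Ezh2, Phf19, Kdm2b and the S phase sum are all highest at D4, whereas Ezh1 is highest at D8; Phf19 and Kdm2b were chosen for this plot after their values were seen.

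The rest of the PRC2 core moved little on the deposited scale. Suz12, the scaffold, stayed between 50.4 and 53.9 CPM in all 8 libraries, and its D8 against D2 difference had a 95% interval of -0.12 to 0.12. Eed, the reader of the methyl mark, was at 34.0 and 35.6 CPM at D2 and at 28.8 to 32.3 CPM in the later libraries. It fell by 0.19 from D2 to D4 (limma adjusted p = 0.0354), a call that ended without either D2 library or without D4 replicate 2 (adjusted p = 0.0665, 0.186 and 0.263). The histone chaperones Rbbp4 and Rbbp7 ranged over 128 to 139 CPM and 166 to 184 CPM. Rbbp7 fell by 0.11 from D2 to D8 (adjusted p = 0.0422), and the call ended without D2 replicate 1, D2 replicate 2 or D8 replicate 1 (adjusted p = 0.128, 0.171 and 0.202). Under median-of-ratios scaling, which takes out the shift of the median gene, D8 lay below D2 for Suz12 (-0.19, adjusted p = 0.00938), Eed (-0.33, adjusted p = 0.000742), Rbbp4 (-0.19, adjusted p = 0.00505) and Rbbp7 (-0.30, adjusted p = 8.99e-05). Under quantile normalization Eed and Suz12 passed (-0.36 and -0.15) and Rbbp4 and Rbbp7 did not (-0.03 and -0.10).

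The accessory subunits that bring PRC2 to chromatin rose, all 4 of them from D2 to D4, when 40.9% of all tested genes rose. Jarid2, which recruits PRC2 and is abundant in embryonic stem cells (ENSMUSG00000038518, chr13:44729474-44921643, plus strand), was at 13.6 and 14.2 CPM at D2, 26.2 and 28.8 at D4, 32.0 and 30.1 at D6, and 28.5 and 35.6 at D8. Every later library was above both D2 libraries, and the 2 libraries of D8 lay further apart than those of any other day. The rise was 0.93 ± 0.095 (SE) by D4 (limma adjusted p = 1.94e-06) and 1.14 ± 0.095 by D8 (adjusted p = 1.71e-07), 2.30-fold.

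Of the Polycomb-like subunits, which bind unmethylated CpG-rich DNA, Mtf2 and Phf1 stayed up and Phf19 did not. Mtf2 was at 18.5 and 17.7 CPM at D2, 23.6 and 24.7 at D4, 29.8 and 28.7 at D6, and 34.6 and 31.8 at D8. No 2 days overlapped, and the change from D2 to D8 was 0.84 ± 0.072 (SE; limma adjusted p = 2.03e-07). Phf1 was at 13.8 and 15.2 CPM at D2, 25.7 and 25.1 at D4, 26.4 and 27.5 at D6, and 26.9 and 26.0 at D8. It was lower at D2 than in every later library, and from D2 to D4 it rose by 0.77 ± 0.073 (adjusted p = 1e-06). The exons of Phf1 share 39.3% of their bases with Cuta on the opposite strand, and Cuta itself went from 38.9 and 40.6 CPM at D2 to 55.7 and 51.3 CPM at D8. Whether the counting used strand is not given in the sources used here, so reads of the pair cannot be told apart. The overlap of Mtf2 with Tmed5 covers 6.9% of its exons. Outside Phf1 and L3mbtl2, no annotated gene on the opposite strand covered more than 9.1% of the exon bases of any of the 33 genes.

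Phf19, the Polycomb-like subunit linked to dividing cells, was at 3.42 and 2.79 CPM at D2, 6.34 and 5.97 at D4, 3.43 and 4.91 at D6, and 3.25 and 3.43 at D8. Both D4 libraries stood above all others, and D8 overlapped D2. It rose by 0.80 ± 0.14 (SE) from D2 to D4 (limma adjusted p = 0.000236) and fell by 0.48 ± 0.14 from D4 to D6 (adjusted p = 0.0163). The fall ended without D4 replicate 1 or D6 replicate 1 (adjusted p = 0.0689 and 0.185). D8 against D2 was 0.08 (adjusted p = 0.61), and it turned to -0.06 under median-of-ratios scaling and -0.36 under quantile normalization (adjusted p = 0.713 and 0.0393). Within the Polycomb-like family, per kilobase, Phf19 went from 9.57% ± 0.39 (SD, n = 2) at D4 to 4.71% ± 0.36 at D8, while Mtf2 went from 33.2% ± 1.2 to 41.3% ± 1.1.

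**Figure D3:**
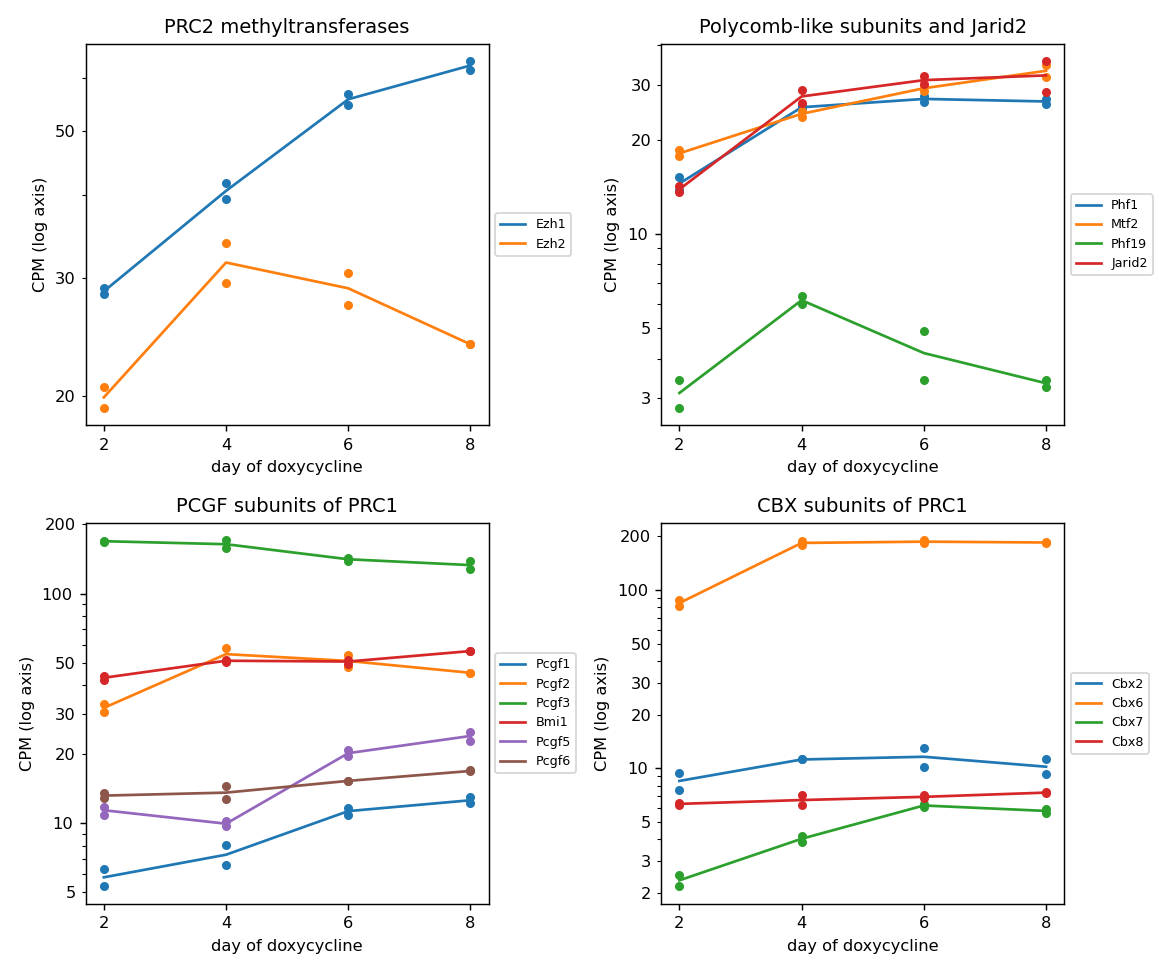
CPM on a log axis against day of doxycycline for 4 groups of paralogues; points are libraries and lines join day means. Cbx6 and Pcgf2 step up by D4, Pcgf5 and Pcgf1 step up between D4 and D6, Pcgf3 declines from D4, and Ezh2 and Phf19 peak at D4.

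The catalytic pair of PRC1 was led by Rnf2, the main ubiquitin ligase, which was at 62.1 and 60.6 CPM at D2, 69.7 and 71.3 at D4, 62.3 and 63.0 at D6, and 64.3 and 66.6 at D8. It stood highest at D4, with a rise of 0.20 (limma adjusted p = 0.00457) that ended under median-of-ratios scaling (0.09, adjusted p = 0.162) and quantile normalization (0.11, adjusted p = 0.0753). Its fall of 0.17 from D4 to D6 (adjusted p = 0.0214) ended without D4 replicate 2, D6 replicate 1 or D6 replicate 2 (adjusted p = 0.0868, 0.0961 and 0.0632). Ring1, its paralogue, was at 12.3 and 14.5 CPM at D2, 18.2 and 17.8 at D4, 23.1 and 20.7 at D6, and 19.1 and 20.1 at D8. All later libraries were above D2, and from D2 to D8 Ring1 rose by 0.52 ± 0.091 (SE; adjusted p = 0.000195), or by 0.34 and 0.22 under median-of-ratios scaling and quantile normalization (adjusted p = 0.00422 and 0.0393). Per kilobase, its share of the pair went from 21.8% ± 2.3 (SD, n = 2) at D2 to 30.7% ± 1.8 at D6 and 27.6% ± 0.23 at D8.

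All 6 PCGF genes, whose proteins define the form of PRC1, differed between D2 and D8, 5 higher and 1 lower (4 and 1 under either other scaling), beside 70.4% of all tested genes. Pcgf3, of a variant complex, was the one that fell. It was at 170 and 167 CPM at D2, 158 and 171 at D4, 143 and 139 at D6, and 128 and 138 at D8. D2 and D4 overlapped, and all D6 and D8 libraries lay below them. The change was -0.22 ± 0.055 (SE) from D4 to D6 (limma adjusted p = 0.00748) and -0.34 ± 0.055 from D2 to D8 (adjusted p = 9.56e-05; -0.53 under median-of-ratios scaling). The first of these ended without D4 replicate 2 (adjusted p = 0.0646).

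Pcgf5, the close paralogue of Pcgf3 in the same form of complex (ENSMUSG00000024805, chr19:36348309-36460970, plus strand), went the other way. It was at 11.8 and 10.9 CPM at D2, 9.69 and 10.2 at D4, 20.8 and 19.6 at D6, and 22.9 and 25.0 at D8. The D6 and D8 libraries were all above those of D2 and D4. From D4 to D6 Pcgf5 rose 2.03-fold, by 0.95 ± 0.085 (SE; limma adjusted p = 3.35e-06), and D8 against D2 was 1.01 ± 0.085 (adjusted p = 1.88e-07). Its D4 against D2 change of -0.18 (adjusted p = 0.0869) passed under the other scalings, at -0.28 and -0.40. Pcgf1, the partner of KDM2B and BCOR in the complex that binds CpG islands, was at 5.31 and 6.33 CPM at D2, 8.04 and 6.57 at D4, 11.7 and 10.9 at D6, and 13.0 and 12.3 at D8. It too stepped up most from D4 to D6, by 0.57 ± 0.11 (adjusted p = 0.00163), and reached 2.17 times its D2 level at D8 (1.00 ± 0.11, adjusted p = 3.36e-06; 0.60 under quantile normalization). The smaller Pcgf1 rise from D2 to D4, 0.28 (adjusted p = 0.0437), ended in 10 of 14 alternatives, among them without D2 replicate 1 (0.18, adjusted p = 0.3) and without D4 replicate 1 (0.15, adjusted p = 0.307).

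Pcgf2 and Bmi1 encode the PCGF subunits of canonical PRC1. Pcgf2 was at 30.5 and 33.1 CPM at D2, 50.8 and 58.2 at D4, 53.8 and 47.9 at D6, and 45.2 and 45.3 at D8. Both D2 libraries were the lowest of the 8, and from D2 to D4 Pcgf2 rose by 0.76 ± 0.077 (SE; limma adjusted p = 1.86e-06). By D8 the Pcgf2 change from D2 was 0.50, or 0.31 and 0.29 under the other scalings. Bmi1, known for holding back senescence through Cdkn2a, was at 42.2 and 43.9 CPM at D2, 51.4 and 50.6 at D4, 49.5 and 51.6 at D6, and 56.4 and 56.0 at D8. It was lowest at D2 and highest at D8, a change of 0.38 ± 0.055 (adjusted p = 3.65e-05) that was 0.19 and 0.20 under the other scalings. Pcgf6, of the variant complex with MGA and MAX, was at 12.9 and 13.6 CPM at D2, 14.6 and 12.7 at D4, 15.3 and 15.3 at D6, and 17.0 and 16.9 at D8. Its D8 against D2 change of 0.33 (adjusted p = 0.00384) was 0.15 after median-of-ratios scaling (adjusted p = 0.114) and 0.03 with quantile normalization (adjusted p = 0.788).

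In shares of the PCGF sum per kilobase, Pcgf3 went from 39.7% ± 1.5 (SD, n = 2) at D2 to 32.2% ± 0.94, 27.7% ± 0.26 and 25.9% ± 1.2 at D4, D6 and D8. Pcgf1 went from 7.90% ± 0.80 at D2 to 14.2% ± 0.70 at D8, and Pcgf2 from 20.2% ± 0.69 at D2 through 28.9% ± 2.0 at D4 to 23.8% ± 0.20 at D8. Bmi1 stayed between 22.9% and 26.6% in every library, Pcgf6 between 4.63% and 6.32%, and Pcgf5 went from 2.03% ± 0.16 to 3.52% ± 0.18. At D8 Bmi1 and Pcgf3 held like shares, 26.3% ± 0.39 and 25.9% ± 1.2, a difference within the spread between libraries. The family sum was 44.6 CPM per kb at D2 and 53.9 at D8. On plain CPM, which gives long transcripts more weight, the Pcgf3 share was 61.6% at D2 and 46.2% at D8.

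The CBX readers of canonical PRC1 showed the largest single step of the 33 genes. Cbx6, the most abundant per kilobase of the 4 CBX genes described here (ENSMUSG00000089715, chr15:79823896-79834688, minus strand), was at 81.7 and 87.5 CPM at D2, 189 and 180 at D4, 191 and 184 at D6, and 185 and 184 at D8. The D2 libraries stood apart at less than 50% of every later value, and D4, D6 and D8 overlapped. From D2 to D4 Cbx6 rose 2.18-fold, by 1.12 ± 0.051 (SE; limma adjusted p = 8.06e-10), and the next 2 steps were 0.02 and -0.02 (95% intervals -0.09 to 0.13 and -0.13 to 0.09). Npcd, annotated on the same strand, shares 5.3% of the Cbx6 exon bases. It went from 5.31 and 5.60 CPM at D2 to 10.2 and 11.6 at D4, so reads of these overlapping genes may be split between them.

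Cbx7, the reader prominent in embryonic stem cells, was at 2.53 and 2.17 CPM at D2, 3.87 and 4.16 at D4, 6.07 and 6.29 at D6, and 5.92 and 5.59 at D8. It rose in both of the early steps, by 0.58 ± 0.11 (SE; limma adjusted p = 0.000411) and 0.52 ± 0.11 (adjusted p = 0.00245). At D8 it was 2.45 times its D2 level, a log2 change of 1.01. Under quantile normalization the 3 Cbx7 changes were 0.37, 0.34 and 0.59, and each still passed. Apobec3, on the opposite strand, shares 1.5% of the Cbx7 exon bases. It was far more abundant, with day means of 31.0, 58.7, 72.0 and 68.0 CPM. As the use of strand is not given, reads of the shared bases cannot be told apart. The part of this overlap in the Cbx7 rise was not tested. Cbx2, which compacts chromatin, was at 7.59 and 9.39 CPM at D2, 11.2 and 11.2 at D4, 10.1 and 13.0 at D6, and 9.25 and 11.2 at D8. D2 and D8 overlapped. The rise of Cbx2 to D4 (0.37, adjusted p = 0.0243) ended without D2 replicate 1 or either D4 library (adjusted p = 0.221, 0.0675 and 0.0701) and under both other scalings. Its D8 against D2 change of 0.24 (adjusted p = 0.114) passed without D2 replicate 2 (0.38, adjusted p = 0.0479), but it was 0.07 under median-of-ratios scaling and turned to -0.14 under quantile normalization (adjusted p = 0.638 and 0.354).

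Cbx8, which is involved in senescence control in fibroblasts, was at 6.40 and 6.23 CPM at D2, 7.04 and 6.22 at D4, 6.77 and 7.06 at D6, and 7.37 and 7.23 at D8. Its D8 against D2 change was 0.18 with a 95% interval of -0.03 to 0.40 (limma adjusted p = 0.121). Under quantile normalization it was -0.25 (adjusted p = 0.0327), so its direction depended on the scale.

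In shares of the sum of these 4 CBX genes per kilobase, Cbx6 went from 66.2% ± 0.16 (SD, n = 2) at D2 to 77.5% ± 0.18 at D4 and 76.7% ± 0.95 at D8. Cbx2 went from 16.5% ± 1.6 at D2 to 10.6% ± 1.3 at D8, and Cbx8 from 14.3% ± 1.0 to 8.76% ± 0.19. Cbx7 was the smallest part on every day, at 3.02% ± 0.48 at D2 and 3.91% ± 0.20 at D8. The sum itself was 11.6 and 12.5 CPM per kb in the D2 libraries and 22.5 and 22.8 in those of D8, and none of the 4 genes fell in its own test. The lower shares of Cbx2 and Cbx8 thus stood beside levels that did not fall on the deposited scale. In the PCGF family, by contrast, a member fell in its own test while others rose. On plain CPM the Cbx6 share was 83.1% at D2 and 88.8% at D8.

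**Figure D4:**
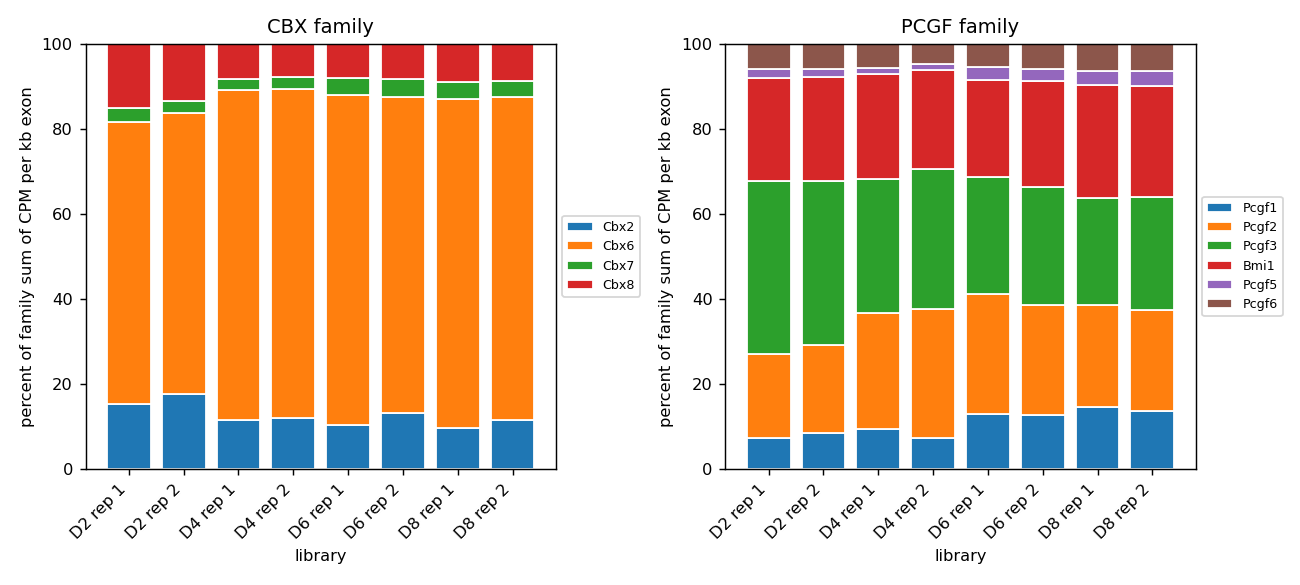
Stacked bars give, for each library, the percent of the family sum of CPM per kb of exon held by each of 4 CBX (left) and 6 PCGF (right) paralogues. The Cbx6 part grows between D2 and D4 and the Pcgf3 part shrinks from D2 to D8, while the Cbx7 part stays between 2.60% and 4.16% in every library.

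The PHC genes, whose proteins link PRC1 complexes through their SAM domains, split. Phc1, the form abundant in stem cells, was at 18.2 and 18.0 CPM at D2, 31.2 and 33.8 at D4, 32.0 and 33.3 at D6, and 27.8 and 29.2 at D8. It was lowest at D2, and by D4 it had risen by 0.81 ± 0.069 (SE; limma adjusted p = 3.63e-07). D8 against D2 was 0.63 (adjusted p = 2.68e-06; 0.38 under quantile normalization). Phc3 had day means of 70.1, 90.2, 92.7 and 96.4 CPM and was 0.45 higher at D8 than at D2 (adjusted p = 8.45e-05; 0.26 under median-of-ratios scaling).

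Phc2 was at 113 and 107 CPM at D2, 101 and 100 at D4, 97.1 and 103 at D6, and 78.7 and 83.3 at D8. The D8 libraries lay below all others. Phc2 fell by 0.44 ± 0.054 (SE) from D2 to D8 (limma adjusted p = 6.51e-06). It was the gene called between D6 and D8 (-0.30, adjusted p = 0.00556), a call that ended without D6 replicate 2 or D8 replicate 1 (adjusted p = 0.054 and 0.0561). The 0.13 fall from D2 to D4 (adjusted p = 0.0425) ended without any 1 of the 4 libraries compared. Per kilobase, Phc2 held 67.8% ± 1.0 (SD, n = 2) of the PHC sum at D2 and 51.3% ± 0.93 at D8, while Phc1 went from 14.8% ± 0.21 to 24.1% ± 0.54 and the family sum from 23.1 to 22.4 CPM per kb. Scmh1, a further SAM domain subunit, ranged from 35.8 to 40.2 CPM, and its D8 against D2 interval was -0.03 to 0.24.

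Among the subunits of variant PRC1, Kdm2b, which brings the PCGF1 complex to CpG islands, peaked at D4. It was at 21 and 20.9 CPM at D2, 28.7 and 34.1 at D4, 26.2 and 25.8 at D6, and 24.5 and 23.1 at D8. The rise to D4 was 0.56 ± 0.082 (SE; limma adjusted p = 5.53e-05; 0.37 under quantile normalization). The fall of 0.26 from D4 to D6 (adjusted p = 0.0251) ended without D4 replicate 2, D6 replicate 1 or D6 replicate 2 (adjusted p = 0.24, 0.0816 and 0.0983). D8 against D2 was 0.17 (adjusted p = 0.0732) and passed without either D4 library (adjusted p = 0.0325 and 0.0339), but its sign turned to -0.01 under median-of-ratios scaling and to -0.08 under quantile normalization (adjusted p = 0.943 and 0.403). Yaf2 had day means of 42.1, 36.7, 32.1 and 33 CPM and fell by 0.34 from D2 to D8 (adjusted p = 0.000739; changes of -0.53 and -0.55 under the other scalings).

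Rybp, the paralogue of Yaf2, went from 43.0 and 42.6 CPM at D2 through 49.5 and 60.3 at D4 to 47.7 and 52.4 at D8, and it rose by 0.34 from D2 to D4 (limma adjusted p = 0.00312; 0.20, adjusted p = 0.0686, after quantile normalization). The Rybp difference between D8 and D2 (0.22, adjusted p = 0.0338) ended under both other scalings and without D2 replicate 1, D2 replicate 2 or D8 replicate 2 (adjusted p = 0.0947, 0.117 and 0.217). L3mbtl2, of the PCGF6 complex, had day means of 13.4, 16.6, 16.6 and 14.1 CPM. Its rise to D4 (0.29, adjusted p = 0.0144) ended under both other scalings and without D2 replicate 1 or D4 replicate 1 (adjusted p = 0.136 and 0.0638). Exons of Chadl on the opposite strand share 17.2% of the L3mbtl2 exon bases.

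The 3 eraser genes changed little on the deposited scale. Bap1, the H2A deubiquitinase, ranged from 48.7 to 56.9 CPM, and its D8 against D2 interval was -0.18 to 0.11. Under the other scalings Bap1 was lower at D8 than at D2, with changes of -0.22 and -0.18 (limma adjusted p = 0.0119 and 0.0301). Asxl1, its partner, ranged from 65.8 to 76.7 CPM and was 0.17 lower at D8 than at D2 (limma adjusted p = 0.0133), a call that ended without either D2 library or D8 replicate 1 (adjusted p = 0.0783, 0.0514 and 0.107). Under median-of-ratios scaling and quantile normalization the Asxl1 change was larger, at -0.35 and -0.28 (adjusted p = 9.65e-05 and 0.000624). Kdm6b, a demethylase of lysine 27, had day means of 79.0, 87.5, 101 and 87.5 CPM. Its rise from D4 to D6 (0.21, limma adjusted p = 0.0187) ended under median-of-ratios scaling (0.12, adjusted p = 0.154) and without a filter (adjusted p = 0.0782). The call also ended without D4 replicate 1, D6 replicate 1 or D6 replicate 2 (changes of 0.12, 0.19 and 0.22). The Kdm6b end point difference (0.15, adjusted p = 0.0496) was -0.04 after median-of-ratios scaling, and the call ended in 9 of the 14 alternatives.

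**Figure D5:**
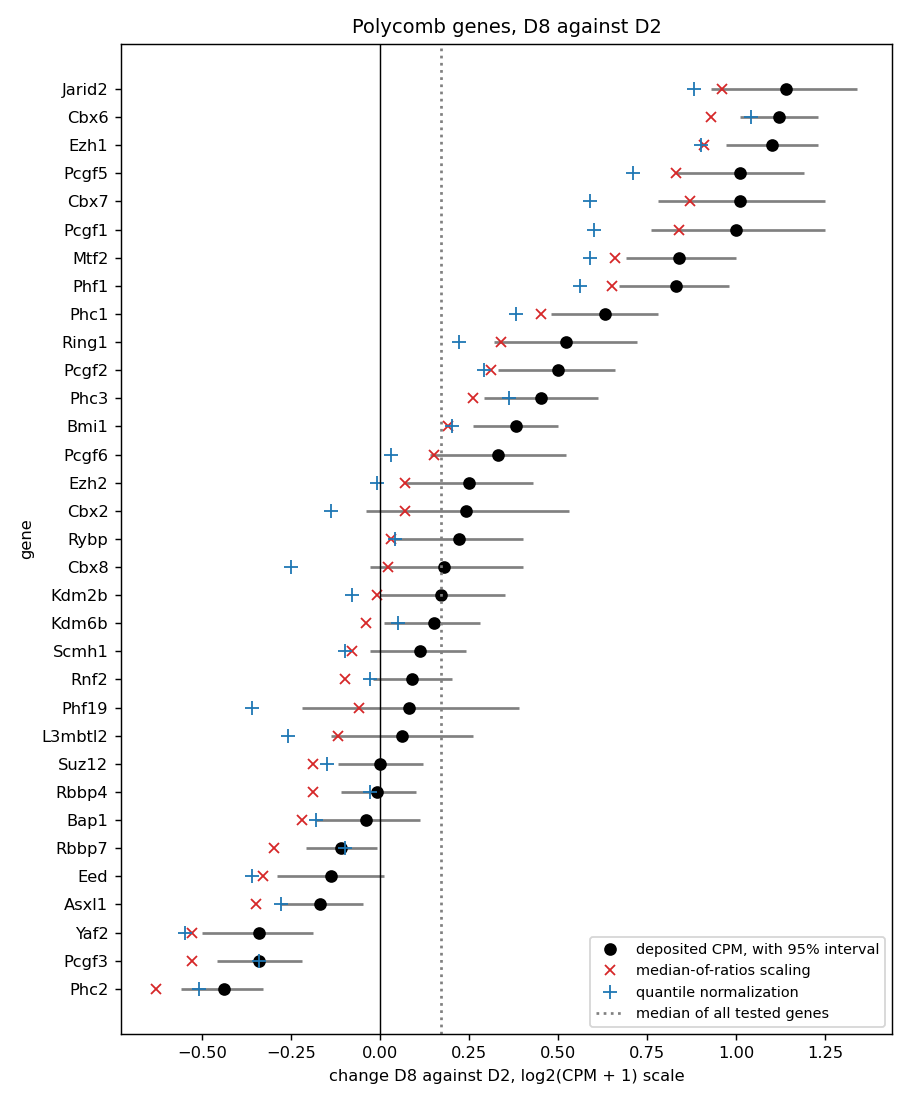
Each row is a gene; the black point is the change from D2 to D8 on the log2(CPM + 1) scale with its 95% interval, crosses and plus signs are the same change under the 2 other scalings, and the dotted line is the median of all tested genes (0.17). Jarid2, Cbx6, Ezh1, Cbx7, Pcgf5 and Pcgf1 lie at 1.00 or more on the deposited scale, and Phc2, Pcgf3 and Yaf2 lie below 0 under each of the 3 scalings.

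Other genes of the system were read from lists of partners. Of 27 PRC1 partners, 15 were higher and 5 lower at D8 than at D2 (10 and 9 after median-of-ratios scaling, 11 and 8 with quantile normalization). These are 55.6% and 18.5% of the list, near the 47.3% and 23.1% of all tested genes. For this list and those that follow, the shares of all tested genes after median-of-ratios scaling were 35.5% higher and 34.3% lower. With quantile normalization they were 31.4% and 38.3%. Scml2, a further SCM protein of PRC1, was at 2.23 and 1.89 CPM at D2 and 11.4 and 11.3 CPM at D8, a rise of 2.02 (limma adjusted p = 3.74e-09). In the complex with PCGF1, Bcorl1 rose by 1.00 (adjusted p = 1.52e-07) and its paralogue Bcor fell by 0.40 (adjusted p = 5.52e-05). Bcorl1 was at 19.4 and 18.6 CPM at D2 and 36.7 and 41.3 at D8, and Bcor at 58.9 and 61.1 CPM at D2 and 44.2 and 46.3 at D8. Sfmbt1 and Sfmbt2, a pair of MBT domain proteins, also moved apart, by 0.86 and -0.66 (adjusted p = 6.5e-07 and 7.37e-05). Csnk2b, the regulatory subunit of casein kinase 2, fell by 0.35 (adjusted p = 7.05e-05).

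Of 4 tested PRC2 partners, 2 were higher and 2 lower at D8 than at D2 (1 and 2 after median-of-ratios scaling, 0 and 2 with quantile normalization), beside 47.3% and 23.1% of all tested genes. Aebp2, the partner that stands in place of the Polycomb-like subunits and works with JARID2, went from 130 and 127 CPM at D2 to 92.7 and 99.3 at D8 (-0.42, limma adjusted p = 8.58e-06). Epop, a partner of Polycomb-like complexes, was at 17.0 and 17.7 CPM at D2, 24.6 and 23.9 at D4, 32.3 and 36.9 at D6, and 19.9 and 23.0 at D8. It peaked at D6 and fell by 0.66 from D6 to D8 (adjusted p = 0.000888).

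Of 13 tested erasers and partners of the BAP1 complex, 9 were higher and 1 lower at D8 than at D2 (9 and 4 after median-of-ratios scaling, 8 and 3 with quantile normalization). These are 69.2% and 7.69% of the list, beside 47.3% and 23.1% of all tested genes. Usp21, a deubiquitinase of H2A, rose by 0.92, Ogt, the sugar transferase bound to the BAP1 complex, by 0.84, and Kdm6a, the paralogue of Kdm6b, by 0.64 (limma adjusted p = 1.22e-08, 6.86e-09 and 1.58e-06). Of 15 tested Trithorax genes, which act against Polycomb, 11 were higher and 1 lower, or 73.3% and 6.67% (6 and 3 after median-of-ratios scaling, 7 and 2 with quantile normalization). Men1, Kmt2d and Psip1 rose most, by 0.91, 0.86 and 0.82 (adjusted p = 1.2e-08, 2.2e-08 and 8.49e-09). The Trithorax list thus moved in the same direction as the majority of called genes on the deposited scale.

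Of 42 textbook Polycomb targets, 23 were below 1 CPM in every library and 19 could be tested. Between D2 and D8, 4 were higher and 11 lower (3 and 13 after median-of-ratios scaling, 2 and 14 with quantile normalization), or 21.1% and 57.9% beside 47.3% and 23.1% of all tested genes. The median change of the 19 was -0.44 beside 0.17 for all tested genes. Cdkn2b, a cell cycle inhibitor, went from 106 and 106 CPM at D2 to 43.7 and 40.1 at D8 (-1.32, limma adjusted p = 1.18e-09). The homeobox genes Msx2 and Irx3 fell by 1.64 and 1.09 (adjusted p = 3.33e-08 and 4.04e-06), while Msx1 and Hand2 rose by 1.06 and 1.21 (adjusted p = 8.82e-07 and 1.3e-07). Cdkn2a, the neighbour of Cdkn2b and named here outside the rule for its known link to Bmi1, was at 80.3 and 80.7 CPM at D2, 61.7 and 51.1 at D4, 74.4 and 63.1 at D6, and 82.3 and 70.6 at D8. D8 overlapped D2 for Cdkn2a. No measurement of histone marks or of Polycomb binding enters these comparisons.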

How the data were processed

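RNA of 8 libraries (2 for each of D2, D4, D6 and D8) was isolated with TRIzol reagent, and a BGISEQ-500 did the sequencing, per the labels' protocols. The deposited table holds CPM for each gene and library, although its name says TPM: all columns have the same sum, and most low values are whole multiples of a step. That step, the most common value of a library, was taken as 1 read, and the read totals were inferred from it. The submitters' processing notes name Trimmomatic 0.39, featureCounts and build mm10, and whether counting used strand is not given in the sources used here. Between 58.3% and 60.0% of values below 20 reads came out as whole reads (tolerance 0.0002 reads), so no count model was used. Same-day libraries differed by more than counting noise: the mean chi-square per gene, 1 under counting noise alone, was 1.41 at D2 and 3.97 to 5.96 later.

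Symbols, positions and merged exon lengths came from GENCODE M21. The members and lists were chosen with earlier results of these data known. limma 3.58.1 (R 4.3.3; lmFit, contrasts, eBayes with trend) was fitted to log2(CPM + 1) of the 15358 genes that reached 1 CPM in 2 or more libraries, all 8 libraries sharing 1 spread (4 residual degrees of freedom). Tests were two-sided, p-values were Benjamini-Hochberg adjusted across the 15358 genes, and calls are at adjusted p under 0.05. The comparisons share libraries. Day means on the log scale understate changes of low genes. The fit was tested on simulated data.

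Values per library are given for the CBX, PCGF, EZH and Polycomb-like genes and for other members with a called change of at least 0.5, and up to 3 called genes in each direction are named from each other list. Alternatives were a pseudocount of 0.1, no filter, median-of-ratios scaling, quantile normalization, the replicate number as a block, only the 2 days compared, and each library left out, 14 in all. The CBX shares were taken over the 4 CBX genes described, since 1 further gene planned for them is not reported here.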

Additional observations from a re-analysis of the deposited data

How the results depend on the processing

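Of the members called on the deposited scale, 12 of 23 kept their call and direction under all 14 alternatives in D4 against D2. The numbers were 4 of 11 in D6 against D4, 0 of 1 in D8 against D6 and 16 of 22 in D8 against D2. No such count is given here for all tested genes. The number of members that differ between days was 22 to 26 under every alternative run. Quantile normalization gave 12 members higher at D4 than at D2 (19 on the deposited scale) and 10 lower at D8 than at D2 (5). Over all tested genes these shares moved likewise, to 28.7% higher (40.9% on the deposited scale) and 38.3% lower (23.1%). Median-of-ratios scaling gave 7 members lower at D4 than at D2 (4), 4 higher at D6 than at D4 (7) and 9 lower at D8 than at D2 (5). The shares of all tested genes were 29.8% (21.7% on the deposited scale), 17.2% (25.2%) and 34.3% (23.1%). Without a filter on low values 1 was lower at D4 than at D2, 2 were lower at D6 than at D4 (4) and 0 lower at D8 than at D6 (1). With only the 2 days compared, 2 were lower at D6 than at D4 and 2 lower at D8 than at D6. Leaving out each library gave 0 to 4 lower at D4 than at D2, 4 to 7 higher and 1 to 4 lower at D6 than at D4, 0 to 3 lower at D8 than at D6, and 3 to 5 lower at D8 than at D2. Some D8 against D2 changes that were called on the deposited or the other scale took the opposite sign to the deposited scale. Under quantile normalization those of Ezh2, Phf19, Cbx8 and L3mbtl2 were -0.01, -0.36, -0.25 and -0.26. Under median-of-ratios scaling that of Kdm6b was -0.04. Changes called on neither scale turned too, among them those of Rnf2 and Scmh1 (-0.10 and -0.08 under median-of-ratios scaling). Without a filter 25416 genes were tested. The cause of the other shifts was not tested.

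The labels do not say whether the replicate numbers pair the libraries across days. Deviations of same-numbered libraries correlated between -0.102 and 0.207 over the 6 pairs of days. With 2 libraries a day these correlations cannot decide whether the libraries are paired. With the replicate number as a block, 3 members were lower at D8 than at D6 (1 without it), 20 higher at D4 than at D2 (19) and 18 higher at D8 than at D2 (17). Among these, Ezh2 passed in D8 against D6 (adjusted p = 0.0352) and Cbx2 in D8 against D2 (adjusted p = 0.0471). Over all genes, D8 against D6 gave 725 higher and 674 lower calls, 485 and 562 with a pseudocount of 0.1, 210 and 134 without a filter, and 232 to 904 higher and 191 to 834 lower with 1 library left out. With 2 libraries a day, a left-out library leaves 1 whose spread is assumed to be that of the others.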
